A study of Mus musculus with 8 samples.

Results

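The cells described here are monocytes, the circulating precursors of many tissue phagocytes, among leukocytes of the mouse submandibular salivary gland and the lymph nodes that drain it. Members were chosen by the measured counts of unique molecules (UMIs) of each barcode, the tag that stands for 1 droplet or cell. A monocyte barcode had at least 500 UMIs, at least 300 detected genes and at most 10% mitochondrial UMIs. It held at least 1 UMI of Csf1r, the receptor for colony-stimulating factor 1, and at least 5 of the lysozyme gene Lyz2. The complement genes C1qa, C1qb and C1qc summed to at most 4 UMIs, the T cell genes Cd3d, Cd3e and Cd3g and the B cell gene Cd79a were at 0, and the plasmacytoid gene Siglech was below 3. Finally, at least 2 of the 7 genes Ly6c2, Ccr2, F13a1, Vcan, Ms4a4c, Ace and Treml4 had a UMI. The rule found 167 monocytes among 25172 barcodes that passed the limits on depth, detected genes and mitochondrial UMIs.

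Leukocytes were sorted for CD45, a surface protein of nearly all blood-derived cells, using an antibody to its CD45.2 form, from mice about 12 weeks of age. The animals were 4 mice of genotype "SS", a name the labels do not spell out, and 4 labelled control, and no strain, allele or agent is named. For the submandibular gland and for its draining nodes, each genotype has 1 sample of gene expression and 1 of T cell receptors, 8 samples in all, so no group has a replicate. How the animals of a group were combined is not stated. Gland pieces were digested with collagenase in a shaker at a raised temperature, whereas nodes were only triturated. The 4 expression libraries are called C1 to C4, and neither labels nor headers tie them to a genotype or a tissue. None was given one here. Values are therefore set side by side by library, with no SS against control and no gland against node comparison, and a difference between libraries is a difference between single libraries with no replicate check.

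Monocytes leave the bone marrow and circulate in the blood. In mice, classical monocytes carry Ly6C and the chemokine receptor CCR2 and enter inflamed tissue, where they can become macrophages or antigen-presenting cells. Patrolling (nonclassical) monocytes lose Ly6C and depend on the nuclear receptor NR4A1, crawl along vessel walls, and express Ace, Treml4 and high levels of the fractalkine receptor CX3CR1. Entry into tissue and interferon-gamma are both known to raise MHC class II, the complex that presents peptides to CD4 T cells. Dissociation of tissue with warm enzymes is known to induce immediate early genes such as Fos.

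The libraries held 48439860, 44798843, 77819179 and 37902916 UMIs, and 5616, 5067, 8532 and 5957 barcodes passed the limits, in the order C1 to C4. Free RNA, read from barcodes with 50 to 200 UMIs, was rich in salivary secretory genes in C1 and C2, at 353115 and 281380 UMIs per 1000000 (CPM), against 42.0 in C3 and 11.7 in C4. The monocytes held these genes at 5631 and 7980 CPM in C1 and C2 and at 0 in C3 and C4, and every C1 and C2 monocyte had at least 1 such UMI. Pairs of libraries shared 31 to 85 barcodes. No monocyte barcode was a monocyte in another library, although 1 C1 monocyte barcode also passed the limits in C3 and 1 C4 monocyte barcode passed them in C2.

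The barcodes held the markers of monocytes and, for the most part, lacked those of other leukocytes. The rule used these genes, so their levels describe the choice and support nothing. From C1 to C4, Ly6c2 was at 1399, 2737, 2783 and 1336 CPM, and was seen in 32 of 52, 54 of 60, 34 of 46 and 8 of 9 barcodes. Ccr2 lay between 792 and 1022 CPM in the 4 libraries. F13a1, which encodes coagulation factor XIII subunit A, lay between 467 and 1033 CPM, Ms4a4c between 333 and 813, and Ace, the angiotensin-converting enzyme gene, between 112 and 257. The 5 marker genes summed to 3338, 5012, 5022 and 4189 CPM. Ly6c2 is no marker of monocytes alone in these cells: T cells held it at 383, 216, 1945 and 439 CPM, and 67.9% of the T cells of C3 had a UMI, at a median depth of 8268 UMIs. F13a1 was at most 1.15 CPM in T cells.

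Lists of genes of neighbouring types were read next, with the rule's own genes left out. The neutrophil genes S100a9 and Retnlg were at 0 in all 4 libraries, and S100a8 was found in 1 C1 and 2 C3 barcodes. The neutrophil list of 8 genes summed to 74.2, 96.4, 99.1 and 101 CPM, nearly all of it Csf3r, the receptor for granulocyte colony-stimulating factor, seen in 19, 32, 29 and 6 monocytes. Mast cell and fibroblast lists were at 0, and a list of T cell genes summed to 9.0 and 1.79 CPM in C1 and C2 and to 0 in C3 and C4. The rule sets Cd3 and Cd79a to 0, so low T and B cell genes were in part set by the choice. From C1 to C4, B cell genes summed to 133, 116, 152 and 146 CPM and plasma cell genes to 189, 259, 150 and 112. Plasmacytoid genes summed to 340, 291, 364 and 606 CPM. NK cell genes were at 92.2, 16.1, 26.7 and 0, with 82.9% of the C1 sum in a single barcode. Dendritic genes were present at a low level. Flt3, Zbtb46, both dendritic cell markers, or Cd209a, a lectin of a type of dendritic cell, had a UMI in 8, 10, 9 and 1 of the monocytes. Cd209a itself, at 263, 191 and 24.8 CPM in C1, C2 and C3, was held by 7, 7 and 2 barcodes. Macrophage markers outside the rule, led by Apoe, summed to 3041, 1371, 337 and 1291 CPM.

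At the edges of the rule, 10, 3, 3 and 0 monocytes held exactly 2 of the 7 genes, and the median member held 4, 4, 4 and 5. Of barcodes that met every other criterion, 4, 2, 1 and 0 held only 1 of the 7. C1q counts were 0 in 44, 55, 43 and 9 members and 3 or 4 in 0, 2, 1 and 0. Just outside that limit, 0, 0, 2 and 0 barcodes had 5 to 8 C1q UMIs, whereas 56, 57, 9 and 0 had more than 8. Lyz2 was far above its limit in most members, with medians of 144, 252.5, 290 and 299 UMIs, and 1 member, in C1, had 5 or 6.

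Monocytes were a small share of leukocytes in every library, and their share of the phagocytes differed widely. They made up 0.926% of the barcodes that passed in C1 (52 of 5616; exact 95% interval 0.692 to 1.21) and 1.18% in C2 (60 of 5067; 0.905 to 1.52). In C3 the share was 0.539% (46 of 8532; 0.395 to 0.718), and in C4 it was 0.151% (9 of 5957; 0.0691 to 0.287). These and all later intervals cover counting error only. The intervals of C1 and C2 overlap, whereas C4 lies below the others. Barcodes that met the Csf1r, Lyz2, Cd3, Cd79a and Siglech criteria numbered 1313, 251, 64 and 11 from C1 to C4. Monocytes were 3.96%, 23.9%, 71.9% and 81.8% of them. The rest were 1256, 189, 15 and 1 C1q-positive macrophages, and 5, 2, 3 and 1 barcodes that were neither. Because C4 has 9 monocytes, its values are given but not ranked.

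The members were split by the rule's own genes into Ly6c2-type barcodes (a Ly6c2 UMI, no Ace or Treml4), Ace-type barcodes (an Ace or Treml4 UMI, no Ly6c2), those with both, and those with neither. Ly6c2-type barcodes were 36.5% of the C1 monocytes (19 of 52; 95% interval 23.6 to 51.0) and 58.3% of those in C2 (35 of 60; 44.9 to 70.9). They were 30.4% of the C3 monocytes (14 of 46; 17.7 to 45.8) and 2 of the 9 from C4. The Ace-type made up 30.8% of C1 (18.7 to 45.1) and 6.67% of C2 (1.85 to 16.2), 21.7% of C3 (10.9 to 36.4) and 1 of the 9 from C4. The interval for C2 lay wholly below that for C1. Barcodes with both were common, 13 of 52, 19 of 60, 20 of 46 and 6 of 9. A barcode with more UMIs has a greater chance of showing both kinds of gene. The Ace-type barcodes were shallower, with median UMIs of 6426.5, 7282 and 6892 in C1 to C3, against 10046, 9201 and 13793.5 in the Ly6c2-type. Barcodes with both lay between these, at 9015, 9082 and 10426, and the part of depth in their number was not tested.

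**Figure D1:**
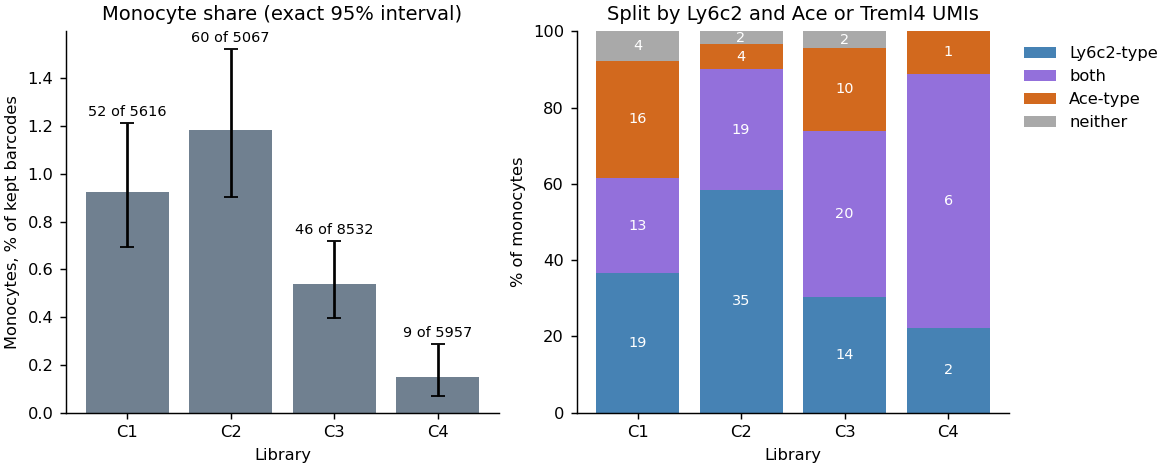
Share of monocytes among barcodes that passed, in percent with exact 95% intervals, for libraries C1 to C4 (left), and the makeup of the monocytes by Ly6c2 and by Ace or Treml4 UMIs, with counts (right). C2 holds the highest share of monocytes, at 1.18%, and the smallest share of Ace-type barcodes among C1 to C3, 4 of 60.

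MHC class II genes had the largest ratio of summed level among the 23 gene lists, 4.40 between the highest and the lowest of C1 to C3. Cd74, the invariant chain that escorts class II molecules, was at 5102, 15870, 23064 and 5211 CPM from C1 to C4. H2-Aa, the alpha chain of I-A, stood at 1386 CPM for C1 (95% interval 1278 to 1500), 4858 for C2 (4678 to 5044), 8717 for C3 (8466 to 8974) and 1965 for C4 (1685 to 2279). It was detected in 13 of 52, 52 of 60, 46 of 46 and 3 of 9 monocytes. H2-Ab1, its beta chain, was at 1287, 4285, 7561 and 1628 CPM. Thus C3 was highest, C2 lay between, and most C1 monocytes had no UMI of H2-Aa.

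The promoters of H2-Aa and H2-Eb1 are given here, with short elements marked, because these genes carry the largest class II difference. They were chosen after their levels were seen. Each line has the 100 bases before the RefSeq start of the gene in GRCm38.p6, the mm10 assembly, 5′ to 3′ on the gene's strand. H2-Aa is at chr17:34287824-34287923 on the minus strand and H2-Eb1 at chr17:34305767-34305866 on the plus strand. Capitals mark an inverted CCAAT box (ATTGG, or CCAAT on the other strand) and, in H2-Aa only, a cyclic AMP response element (TGACGTCA).
H2-Aa: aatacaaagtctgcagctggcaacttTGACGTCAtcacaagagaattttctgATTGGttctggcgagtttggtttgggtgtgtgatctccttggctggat
H2-Eb1: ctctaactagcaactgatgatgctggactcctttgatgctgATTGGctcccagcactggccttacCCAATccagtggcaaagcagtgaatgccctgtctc

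In the 250 bases before the start, 7 of the 10 class II list genes with a sequence (70.0%) held an ATTGG on either strand, against 37.49% of 27025 genes. The full TGACGTCA element was found in H2-Aa alone of these 10, against 1.769% of all genes. A match is a description of these letters and not a measured binding site.

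Other class II genes named here had the same order among C1 to C3. H2-Eb1, the beta chain of I-E, was at 997, 3355, 7058 and 1482 CPM from C1 to C4, the largest ratio of the list, 7.08 between C3 and C1. H2-DMb1, which helps load peptides, was at 227, 716, 804 and 89.8 CPM. Ciita, the master regulator of class II genes, was at 36, 121, 187 and 180 CPM. The summed level of the whole list was 11954 CPM for C1 (95% interval 11635 to 12280), 33125 for C2 (32650 to 33605), 52566 for C3 (51948 to 53190) and 13970 for C4 (13204 to 14769). A single barcode supplied 20.2% of the sum in C1 and 41.1% in C4. The list was 2.77 times as high in C2 as in C1, and 4.40 times as high in C3.

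Among genes with at least 50 UMIs in 1 of C1 to C3, 6 of the 11 measured class II genes were at least 2-fold higher in C2 than in C1 and none lower, against 2.96% of all 1925 genes higher and 1.97% lower. In C3 against C1, 8 of 11 were higher and none lower, against 6.91% higher and 8.26% lower of all genes. The medians of the list were 1.64 and 2.05 on the log2 scale, beside 0.01 and 0.08 over all genes. In C3 against C2, 2 were higher and 1 lower, against 4.21% and 6.39%. These comparisons share libraries and are not independent of each other.

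The difference lay in how many monocytes carried class II RNA, not only in the level of a few. The UMIs of Cd74, H2-Aa, H2-Ab1 and H2-Eb1 together, per 10000 UMIs of a barcode, had a median of 3.55 in C1, with quartiles of 1.54 and 25 and a highest value of 726. In C2 the median was 274 (quartiles 104 and 401, highest 909), and in C3 it was 414 (quartiles 304 and 633, highest 963). In C4 the 9 barcodes ran from 1.05 to 757 with a median of 4.60. Over 100 per 10000 were 8 of 52, 46 of 60, 43 of 46 and 2 of 9 monocytes. The ranges overlap, since each library had both low and high barcodes, but the lower quartile of C2 and of C3 lay above the upper quartile of C1.

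Subsets differed in this respect between libraries. The 16 Ace-type barcodes of C1 had a median of 6.05 and a highest value of 22.4, and the 19 Ly6c2-type a median of 3.05. In C2 the Ly6c2-type median was 273 and that of barcodes with both was 296, whereas the 4 Ace-type barcodes were low, from 6.55 to 69.0. In C3 the medians were 391 in Ly6c2-type, 405 in Ace-type and 415 in barcodes with both, so Ace-type barcodes were high there as well. Among Ly6c2-type monocytes only, the list was 3.43 times as high in C3 as in C1.

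Dendritic genes moved with class II within C1. The 8 C1 monocytes with a Flt3, Zbtb46 or Cd209a UMI held these 4 class II genes at 34160 CPM, and the other 44 at 1541 CPM. The same values were 44520 and 23728 CPM in C2, and 51494 and 44642 CPM in C3. Without all such barcodes the list was 6.50 times as high in C2 as in C1, and 11.6 times in C3, so the difference was larger without them. Their part in the C1 sum is thus given, and whether they are monocytes or dendritic cells was not tested. When the rule was applied after thinning every barcode to 2000 UMIs, the ratios were 4.38 and 8.23.

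Class II levels of other cells did not follow the same order. C1q-positive macrophages had medians of 966, 1128 and 763 per 10000 in C1, C2 and C3, dendritic cells 765, 675 and 535, and T cells 1.18, 0 and 0. H2-Aa was found in 15.7%, 6.84%, 3.11% and 3.55% of T cells, which should lack it, at median depths of 5940, 4913.5, 8268 and 6096 UMIs. The monocytes had median depths of 8527, 9056, 9787.5 and 11486. By detection alone, the 25% of C1 monocytes with H2-Aa stands nearer to that background than the 86.7% in C2 and 100% in C3. The level sets some of them apart. Over 100 per 10000 of Cd74, H2-Aa, H2-Ab1 and H2-Eb1 together were 15.4% of C1 monocytes, against 3.19% of C1 T cells. Thinned to 4101 UMIs, with 8, 5, 4 and 0 shallower barcodes left out, the shares of monocytes with H2-Aa were 22.7%, 85.5%, 97.6% and 33.3%.

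**Figure D2:**
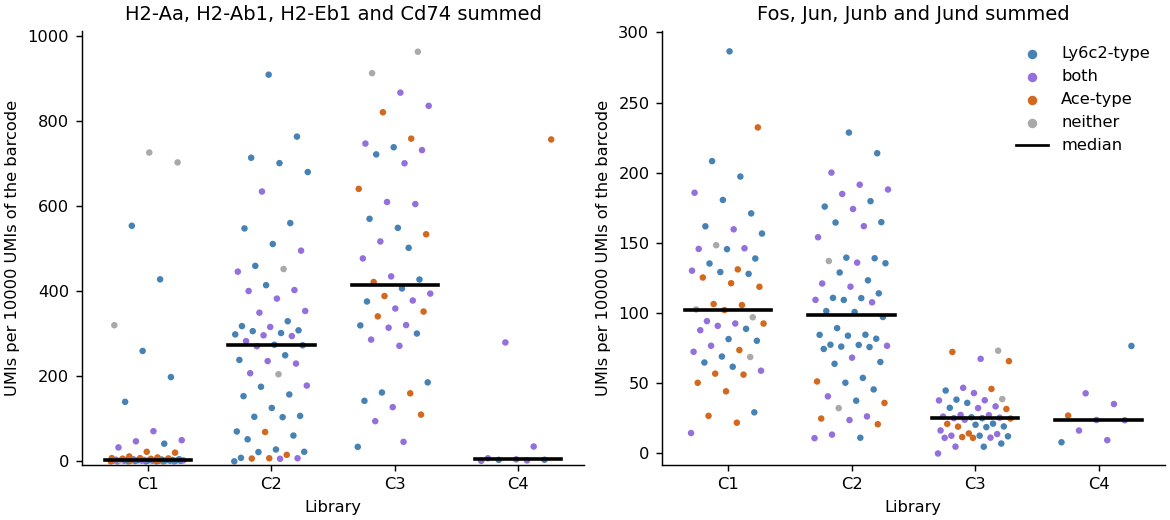
UMIs of Cd74, H2-Aa, H2-Ab1 and H2-Eb1 (left) and of Fos, Jun, Junb and Jund (right) per 10000 UMIs in each monocyte, by library, coloured by Ly6c2 and Ace or Treml4 type, with the median as a line. Class II medians are 3.55 in C1 against 274 and 414 in C2 and C3, whereas the Fos and Jun medians are 102, 99.0 and 25.2.

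MHC class I genes, which present peptides to CD8 T cells, showed smaller differences, with C1 lowest among C1 to C3. The heavy chain gene H2-K1 was at 1246, 2323, 2610 and 1370 CPM from C1 to C4. B2m, the shared light chain, was at 2416, 3278, 3839 and 2987 CPM, and H2-D1 at 2754, 3705, 3469 and 1909. Psmb8, a subunit of the immunoproteasome, was at 470, 843, 892 and 472 CPM. The largest ratio of the list, 8.54, belonged to H2-Q7, a nonclassical class I gene, with 54.0, 300, 461 and 124 CPM. H2 class I genes are near copies of each other, so reads may have been split or lost between them. The list summed to 8942, 13636, 14994 and 9209 CPM, and 6 of 13 measured genes were at least 2-fold higher in C3 than in C1 with none lower. Of all genes, 6.91% were higher and 8.26% lower in that pair.

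Interferon-stimulated genes were strongly expressed by monocytes of every library, and their makeup differed more than their sum. The 37 genes of the list that were found summed to 11630, 12716, 12701 and 18249 CPM. The C4 value rests for 35.5% on a single barcode. Ifitm3, an antiviral membrane protein, led the list at 5077, 5117, 4134 and 4728 CPM, and Ifi27l2a followed at 2085, 2323, 3006 and 2763. These differed less between libraries than the genes that follow.

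A minority of the list differed between libraries. Of its measured genes, 5 of 24 were at least 2-fold higher in C2 than in C1 with none lower, against 2.96% and 1.97% of all genes. In C3 against C1, 7 of 24 were higher and 1 lower, against 6.91% and 8.26%. Irf1, a transcription factor induced by interferon-gamma, was at 108, 252, 297 and 371 CPM from C1 to C4. Gbp2, a guanylate-binding protein, was at 27.0, 225, 162 and 135 CPM. Iigp1, an immunity-related GTPase, had no UMI in C1 or C4 and was at 89.3 CPM in C2 and 118 in C3, in 15 of 60 and 16 of 46 monocytes. After thinning to 4101 UMIs, 16.4% of C2 and 26.2% of C3 monocytes held it, against 5.48% and 5.06% of T cells unthinned.

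In C4 the type I interferon genes Ifit3 and Isg15 were at 483 and 730 CPM, but 1 barcode held 38 of the 43 Ifit3 UMIs. In C1 to C3, Ifit3 was at 33.7, 19.6 and 22.9 CPM and Isg15 at 218, 241 and 263.

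The Gbp2 and Irf1 promoters hold the letters that interferon-regulated factors read and are shown, again chosen after their levels were seen, for these 2 genes of the list. Capitals mark an interferon-stimulated response element (GAAA, any 2 bases and GAAA again, here on the other strand) in Gbp2, a gamma-activated sequence (TTCNNNGAA) in Irf1, and a CCAAT box. Gbp2 is at chr3:142620563-142620662 and Irf1 at chr11:53769914-53770013, both on the plus strand of GRCm38.p6, from RefSeq.
Gbp2: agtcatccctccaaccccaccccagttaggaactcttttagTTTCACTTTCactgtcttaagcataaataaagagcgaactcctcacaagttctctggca
Irf1: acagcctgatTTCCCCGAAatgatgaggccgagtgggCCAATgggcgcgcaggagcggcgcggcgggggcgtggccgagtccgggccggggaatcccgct

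The response element begins 59 bases before the start of Gbp2, and the gamma-activated sequence 90 bases before that of Irf1. Of 30 list genes with a sequence, 18 (60%) held the response element on either strand in the 250 bases before the start, against 3.463% of 27025 genes. TTCNNNGAA was present in 9 of 30 (30.0%), against 8.13% of all genes. The list was drawn up from genes known to answer to interferon, so this describes its makeup.

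Cxcl9 and Cfb, both known targets of interferon-gamma, were concentrated in C3. Cxcl9, a chemokine that attracts T cells, had no UMI in C1 or C4, and was at 14.3 CPM in C2 (5 barcodes) and 549 CPM in C3 (15 of 46 barcodes). A single barcode held 31.6% of its C3 UMIs. T cells held a Cxcl9 UMI in at most 1.67% of barcodes. The C2 macrophages had far more, 1725 CPM, and those of C3 2283, so monocytes of C2 were low where its macrophages were high. Cfb, complement factor B, was at 42.7, 57.1, 571.5 and 11.2 CPM, seen in 10, 14, 28 and 1 barcodes, with 40.3% of its C3 UMIs in 1 barcode. The gene of complement component 3 was at 232, 350, 530 and 494 CPM, and that of properdin (Cfp) at 153, 120, 238 and 56.2.

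The immediate early genes had another distribution, high in C1 and C2 and low in C3, with the unranked C4 values given beside them. Fos stood at 4202 CPM for C1 (95% interval 4014 to 4397), 4094 for C2 (3928 to 4265), 646 for C3 (579 to 718) and 910 for C4 (722 to 1131). Atf3, a stress-induced factor, was at 2481, 2394, 150 and 640 CPM, and Jun at 1624, 1511, 282 and 427. Zfp36, which destabilises cytokine messages, was at 3791, 4166, 1577 and 1415 CPM. The list's sum was 28521 CPM for C1 (28026 to 29021), 26390 for C2 (25966 to 26819), 7538 for C3 (7305 to 7777) and 8759 for C4 (8155 to 9396). It was thus 3.78 times as high in C1 as in C3, and 3.50 times in C2. In C3, 17 of 19 measured genes were at least 2-fold lower than in C1 and 15 of 19 lower than in C2, with none higher in either case. Of all genes, 8.26% and 6.39% were lower, and 6.91% and 4.21% higher.

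Single barcodes showed the same. Fos, Jun, Junb and Jund per 10000 UMIs ran from 14.6 to 287 in C1 with a median of 102, and from 10.9 to 229 in C2 with a median of 99.0. In C3 they ran from 0 to 73.3 with a median of 25.2, and in C4 from 8.0 to 76.6 with a median of 23.9. In other cells C1 was highest and C3 lowest of the libraries given. The medians were 198, 91.4 and 29.6 in macrophages of C1 to C3. They were 65.3, 38.1, 22.1 and 23.4 in dendritic cells and 93.8, 33.1, 19.3 and 29.4 in T cells of C1 to C4. The difference between C1 and C3 is therefore shared with other leukocytes of these libraries. In C2 it is shared less: the medians of these other cells lay well below those of C1, whereas monocytes were near their C1 median. Warm enzymatic handling applied to 1 of the tissues, but the libraries are tied to no tissue, so its part in these values was not tested.

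Nr4a1 belongs both to these early genes and to the patrolling program. It was at 2121, 1623, 194 and 337 CPM, in 51 of 52, 56 of 60, 25 of 46 and 6 of 9 monocytes. After thinning, the shares were 97.7%, 92.7%, 42.9% and 55.6%. T cells held it in 69.3%, 39.9%, 5.71% and 14.7% of barcodes unthinned, again highest in C1. Its level between libraries thus followed the other early genes, while the share of Ace-type barcodes was lowest in C2.

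Of 6 measured inflammatory mediators, 4 were at least 2-fold lower in C3 than in C1 and 3 lower than in C2, with none higher, against 8.26% and 6.39% of all genes lower. Il1b, which encodes interleukin 1 beta, was at 2457, 2582, 282 and 764 CPM, and 1 barcode held 79.4% of the C4 value. It was found in 41, 48, 24 and 2 monocytes, and in at most 5.21% of T cells. Osm, oncostatin M, was at 162, 329, 26.7 and 56.2 CPM, and Tnf at 92.2, 30.4, 22.9 and 33.7. Tgfb1 differed less, at 814, 607, 432 and 865. Il6 was seen in 2 C2 barcodes and Il10 in 1 C3 barcode. Il12b and Nos2, genes of strongly activated phagocytes, had no UMI in any of the 167 monocytes.

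Most measured chemokine ligands were lower in C3. Ccl4, an inflammatory chemokine, was at 1021, 1282, 28.6 and 191 CPM, and Ccl3 at 601, 359, 24.8 and 124. Ccl2, which recruits CCR2-positive monocytes, was at 403, 455, 9.53 and 44.9 CPM, from 22, 22, 3 and 2 barcodes. Ccl6 and Ccl9, constitutive myeloid chemokines, were also lower in C3, at 410 against 1287 and 1430 CPM for Ccl6 and at 162 against 481 and 387 for Ccl9. In C3 against C1, 6 of 9 measured ligands were at least 2-fold lower and 3 higher, against 8.26% and 6.91% of all genes. Macrophages again differed the same way: Ccl4 was at 10370, 3642 and 0 CPM in those of C1, C2 and C3. T cells held Ccl4 at 1145, 2973, 161 and 14.7 CPM.

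**Figure D3:**
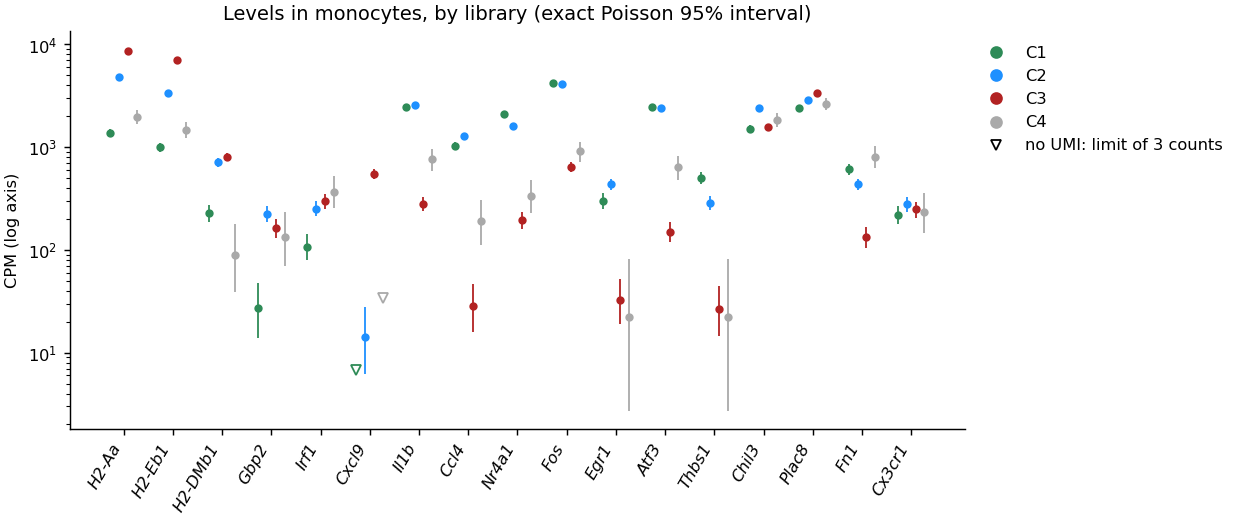
Level of 17 genes in monocytes of each library, in UMIs per 1000000 on a log axis, with exact 95% Poisson intervals for counting error; open triangles stand for no UMI and are drawn at the limit that a count of 0 allows, 3 counts. H2-Aa and the interferon genes are lowest in C1 among C1 to C3, Il1b, Ccl4 and the early genes are lowest in C3, and Chil3, Plac8 and Cx3cr1 differ less.

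The classical monocyte genes differed little between libraries. Plac8 was at 2434, 2857, 3372 and 2639 CPM, and Chil3, a chitinase-like protein of classical monocytes, at 1518, 2428, 1577 and 1830. The calcium-binding S100a4 and S100a6 stayed between 1296 and 2257 CPM in all 4 libraries. The list, without the rule's genes, summed to 10260, 11958, 11087 and 11488 CPM. The exceptions were Thbs1, thrombospondin 1, at 506, 286, 26.7 and 22.5 CPM, and Fn1, fibronectin, at 610, 434, 133 and 809, and these were the 2 of 11 measured genes at least 2-fold lower in C3 than in C1. Of all genes, 8.26% were that much lower in this pair.

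Of the patrolling genes, Gngt2, a G protein subunit, was at 751, 620, 764 and 831 CPM and Cx3cr1 at 220, 278, 248 and 236, with little difference. Pou2f2 was at 340, 300, 166 and 258 CPM. Klf2, a factor that is also an early response gene in many cells, was at 871, 1164, 246 and 202 CPM. The list summed to 6105, 5299, 2981 and 3403 CPM. In C3 against C1, 6 of 14 measured genes were at least 2-fold lower, Nr4a1 and Klf2 among them, and 1 higher, against 8.26% and 6.91% of all genes.

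Regulators and receptors were mixed. Of 17 measured myeloid transcription factors, 4 were at least 2-fold lower and 1 higher in C3 than in C1, against 8.26% and 6.91% of all genes, and of 14 growth factor and cytokine receptors none was lower and 2 were higher. Spi1, the myeloid master factor PU.1, was at 731, 793, 861 and 775 CPM, and Irf8 at 175, 259, 234 and 225. Cebpb, needed for survival of patrolling monocytes, was higher in C1 and C2, at 3091 and 2857 CPM, than in C3 and C4, at 1549 and 1651. The interferon-gamma receptor Ifngr1 was at 461, 396, 547 and 404 CPM. Csf2rb2, a beta subunit for interleukin 3 signals, had the largest ratio of the growth factor and cytokine receptor list, 6.21, with 20.2, 42.9, 126 and 67.4 CPM. Of the receptors for migration, Cxcr4 was at 259, 148, 28.6 and 33.7 CPM. Icam1, an adhesion molecule, was at 74.2, 154, 290 and 236 CPM, whereas the integrin chain Itgb2 stayed between 494 and 543.

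Of 7 measured genes of the tissue macrophage program, 3 were at least 2-fold lower in C3 than in C1 and none higher, against 8.26% and 6.91% of all genes. Apoe, which encodes the lipid carrier apolipoprotein E and led the list, stood at 2902 CPM for C1 (95% interval 2746 to 3065), 1203 for C2 (1114 to 1298), 229 for C3 (190 to 273) and 1056 for C4. It was found in 46 of 52, 34 of 60, 22 of 46 and 7 of 9 monocytes. Free RNA held Apoe at 1048, 206, 48.5 and 187 CPM and T cells at 103, 23.1, 1.16 and 1.51, in the same order of C1 to C3. Macrophages were also most numerous in C1, and the part of their RNA in the monocytes' Apoe was not tested. Selenop and Ctsb differed less, at 400, 291, 200 and 247 CPM for Selenop and at 1435, 1157, 960 and 1134 for Ctsb.

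Over all genes outside the rule with at least 100 UMIs in the highest of C1 to C3, 7.04% of 881 differed at least 4-fold between the highest and the lowest library. C1 was highest for 2.84%, C2 for 1.59% and C3 for 2.61%. Some of the largest ratios belonged to genes abundant in free RNA or to 1 barcode. Prol1, a secretory gene, was at 40211 and 32064 CPM in the free RNA of C1 and C2 and at 637 and 871 in their monocytes, and the source of the latter was not tested. Of single barcodes, 97.7% of the C2 UMIs of Wfdc18 were in 1 barcode, 99.0% of Gzmb in C1, and 92.3% of Lyz1 in C3. The rest included Cd14, the endotoxin co-receptor, at 958, 534, 34.3 and 33.7 CPM, and Rilpl2 at 324, 94.6, 19.0 and 33.7. In the other direction, Ly6i, a relative of Ly6c2, was at 65.2, 241, 1244 and 112 CPM, in 13, 33, 40 and 5 barcodes. Ly6a (Sca-1), known to respond to interferon, was at 27.0, 202, 543 and 44.9 CPM. Ly6 genes are close relatives of each other, and reads may have been shared among them.

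Monocytes were next compared with C1q-positive macrophages of the same libraries, which differ from them in the rule only by more than 4 C1q UMIs and by needing none of the 7 genes. UMIs were summed per class and library in C1, C2 and C3 and tested with edgeR's quasi-likelihood test with the library as a block. Positive log2 fold changes are higher in monocytes, and the ± values are standard errors. Classes and test come from the same barcodes, so the genes called describe how the classes differ outside the rule's genes, and no p-value supports the label. Of 5716 genes, 245 (4.29%) were higher and 197 (3.45%) lower in monocytes at an adjusted p under 0.05. Counts over lists in this comparison stand beside these shares. With scaling by library size alone, 352 genes were higher and 165 lower. The calls depend on single libraries: without C1 they were 163 and 137, without C3, which has 15 macrophages, 656 and 694, and without C2 none passed, with 585 genes at an unadjusted p under 0.05.

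The classical program stood highest. Of its 11 tested genes, 6 were higher in monocytes and none lower, with a median log2 fold change of 4.92 beside -0.02 over all genes. Chil3 was at 1518, 2428 and 1577 CPM in monocytes of C1, C2 and C3, and at 0.199, 47.0 and 11.8 in macrophages (log2 fold change 7.78 ± 1.29, adjusted p = 0.018). Hp, haptoglobin, was at 524, 855 and 688 against 1.59, 25.1 and 35.4 CPM (5.85 ± 0.78, adjusted p = 0.010). Every library had the monocytes above the macrophages for these genes, which was a condition for naming genes by largest fold change. Plac8 was at 2434, 2857 and 3372 against 6.87, 91.2 and 1298 CPM and did not pass (adjusted p = 0.087), the macrophages of C3 being high. Cd209a was at 0 in the macrophages of all 3 libraries.

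Matrix and coagulation genes were also higher, 7 of 12 with 2 lower. Fn1 was at 610, 434 and 133 CPM against 3.38, 3.65 and 0 (7.02 ± 0.36, adjusted p = 0.00067). F10, coagulation factor X, was at 110, 162 and 80.0 against 0.199, 2.74 and 5.90 CPM (6.80 ± 0.58, adjusted p = 0.0030), and Thbs1 differed by 4.12 ± 0.35. Of the patrolling genes, 6 of 17 were higher and 1 lower. Ceacam1, an adhesion receptor of that list, differed by 4.33 ± 0.26. Ear2, an eosinophil-associated ribonuclease gene outside the lists, was at 254, 127 and 147 against 2.19, 2.28 and 0 CPM (6.30 ± 0.35). Cx3cr1 did not pass (-0.76 ± 0.53, adjusted p = 0.43), since macrophages of C1 and C2 held it too, at 708 and 491 CPM. Of adhesion genes, 8 of 15 were higher and 1 lower, among them the gut-homing integrin chain Itgb7 (3.45 ± 0.47).

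Macrophages held more of the genes of resident tissue cells. Of the tissue macrophage program 7 of 13 were lower in monocytes and none higher. Apoe was at 2902, 1203 and 229 CPM in monocytes and at 19925, 9855 and 838 in macrophages (-2.77 ± 0.31, adjusted p = 0.0056). The tetraspanins Cd81 (-5.33 ± 1.10) and Cd63 (-5.40 ± 1.05) and the uptake receptor Axl (-4.49 ± 0.39) were lower as well. Among chemokine ligands, 5 of 13 were lower and 2 higher: Ccl12 was at 0, 5.36 and 3.81 CPM in monocytes and at 500.2, 502 and 23.6 in macrophages (-6.73 ± 0.84), whereas Ccl6 was higher (2.87 ± 0.24). Il1b did not differ beyond its error (-0.01 ± 0.30, adjusted p = 1.0), and Tnf was lower (-3.19 ± 0.58, adjusted p = 0.022).

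Of 13 tested class II genes 3 were lower in monocytes and none higher, with a median of -1.07. H2-Eb1 was at 997, 3355 and 7058 CPM against 13682, 17723 and 13675 (-2.56 ± 0.56, adjusted p = 0.039). H2-Aa was close to the threshold at -2.19 ± 0.52 (adjusted p = 0.052). The gap was wide in C1 and narrow in C3, as the levels show. Of interferon-stimulated genes, 3 of 37 were higher and none lower, against 4.29% and 3.45% of all genes. Ifitm6 was among the higher, by 6.15 ± 1.08 (adjusted p = 0.021). Ifitm3 was at 5077, 5117 and 4134 against 282, 586 and 2549 CPM without passing (adjusted p = 0.061). No class I, heat shock or cell cycle gene passed in either direction, of 14, 12 and 5 tested, too few to tell from the shares over all genes.

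Dendritic cells were taken as barcodes with at least 2 of Flt3, Zbtb46, Xcr1, Clec9a, Cd209a, Fscn1 and Ccr7. They also held at least 20 UMIs of H2-Aa, H2-Ab1 and Cd74, and met the monocyte rule's limits on C1q, Cd3, Cd79a and Siglech. A barcode that met the whole monocyte rule was counted only as a monocyte, so higher monocyte genes in monocytes may in part be set by that choice. Dendritic cells numbered 23, 20 and 31 in C1 to C3 and 20 in C4. C4 has too few monocytes to enter, so the fit used C1 to C3. Of 5145 genes outside both rules, 499 (9.70%) were higher in monocytes and 395 (7.68%) lower. Counts over lists in this comparison stand beside these shares. DESeq2 called 290 genes higher and 157 lower, and without C2 the counts were 193 and 124.

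Monocytes held more of the genes of innate recognition and uptake. Of pattern recognition receptors 11 of 17 were higher and none lower, with Clec4e, the receptor Mincle, at 261, 195 and 251 CPM against 9.85, 0 and 0 (6.17 ± 0.58, adjusted p = 0.0010) and Tlr7, a sensor of single-stranded RNA, by 6.11 ± 0.61. Of Fc receptor and uptake genes 11 of 17 were higher and 3 lower, with the high-affinity receptor Fcgr1 at 117, 207 and 107 CPM against 6.57, 15.9 and 0 (4.33 ± 0.46). Of classical genes 9 of 11 were higher, and Chil3 and Hp had no UMI in dendritic cells of C1 to C3. Of patrolling genes 10 of 15 were higher and 1 lower, Cx3cr1 among the higher (3.37 ± 0.42, adjusted p = 0.0025).

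The factor Cebpb (6.03 ± 0.40, adjusted p = 0.00032), which shapes the monocyte lineage, was higher in monocytes. Spi1 and Irf8, which both lineages use, did not pass (adjusted p = 0.16 and 0.20). Irf4 and Id2, factors of dendritic cells, were lower by log2 fold changes of -2.31 ± 0.44 and -1.88 ± 0.23. Apoe was almost exclusive to monocytes in this pair, at 2902, 1203 and 229 CPM against 3.28, 0 and 0. Interferon-stimulated genes were higher for 12 of 32 and lower for none, with Ifitm3 at 5077, 5117 and 4134 CPM against 1353, 1880 and 1057 (1.76 ± 0.13, adjusted p = 0.00045). All 3 libraries had monocytes above dendritic cells for this gene.

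Dendritic barcodes were chosen for at least 20 UMIs of H2-Aa, H2-Ab1 and Cd74. Lower class II RNA in monocytes was therefore in part set by that choice. Of 12 tested class II genes outside both rules, 1 was higher in monocytes and 5 were lower. These were led by the accessory genes H2-DMb2 (-4.18 ± 0.53), H2-Oa (-3.91 ± 0.31) and H2-Ob (-3.72 ± 0.43), which tune peptide loading and are typical of B and dendritic cells. H2-Oa was at 15.7, 12.5 and 32.4 CPM against 158, 363 and 395, so it stayed low in the C2 and C3 monocytes that had abundant H2-Aa. H2-Eb1 missed the threshold (-1.80 ± 0.55, adjusted p = 0.063). The integrin chain Itgax (CD11c) was lower by -2.63 ± 0.27 on the log2 scale, and Cd24a, a marker of several dendritic cells, by -4.64 ± 0.49. Of cell cycle genes 5 of 11 were lower and none higher, among them Mcm6 (-3.40 ± 0.34) and Tubb5 (-2.00 ± 0.25).

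**Figure D4:**
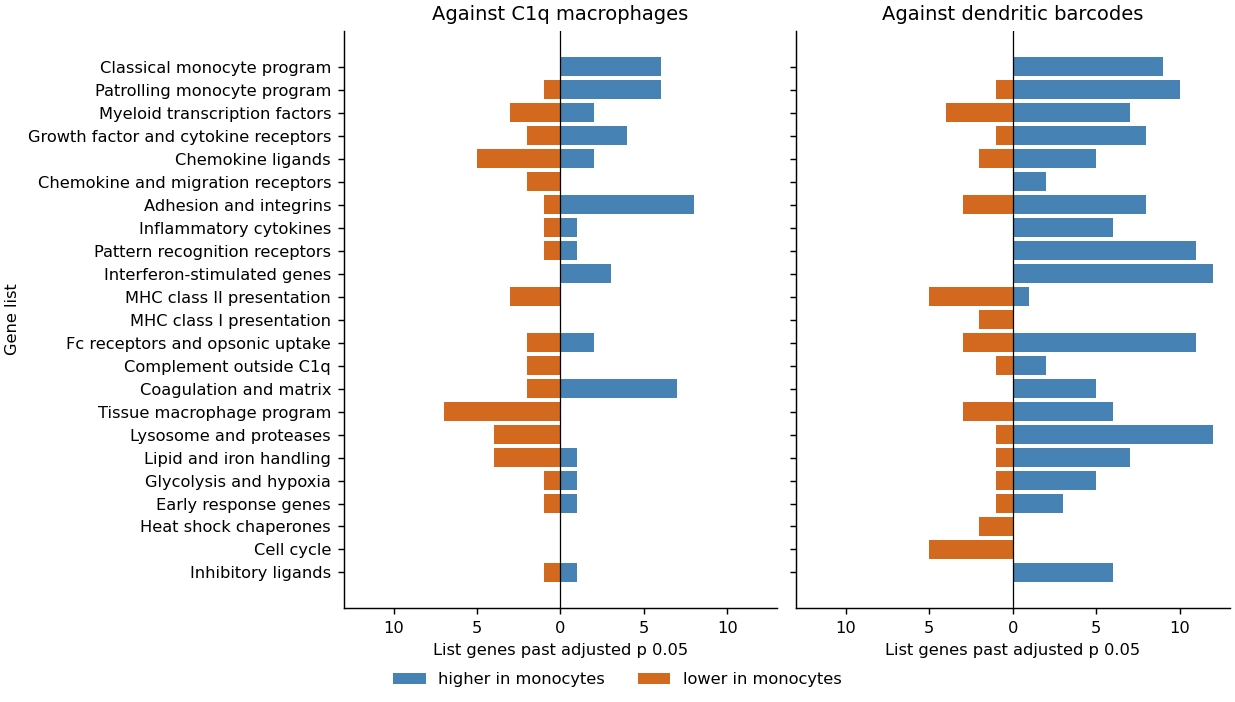
Number of genes of each list that were higher (right) or lower (left) in monocytes, by edgeR's quasi-likelihood test over C1 to C3, against C1q-positive macrophages and against dendritic cells. Classical genes are higher in both comparisons, 6 of 11 and 9 of 11, against 4.29% and 9.70% of all genes. Tissue macrophage genes are lower against macrophages, 7 of 13, against 3.45% of all genes.

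The subsets were compared last. Only C1 and C3 had at least 10 Ace-type barcodes, so Ly6c2-type barcodes were set against all that carried Ace or Treml4, with or without Ly6c2, a choice made after these counts were seen. Of 3210 genes outside the rule, 57 (1.78%) were higher and 96 (2.99%) lower in Ly6c2-type barcodes. Counts over lists in this comparison stand beside these shares. DESeq2 called 7 genes higher and 25 lower, and a fit without the library block 1 and 5. Without C1 the counts were 39 and 75, without C2 12 and 34, and without C3 106 and 145.

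Patrolling genes tracked Ace and Treml4: 12 of 14 were lower in the Ly6c2-type and none higher, with a median of -1.87 beside 0.02 over all genes. Pglyrp1, a peptidoglycan-binding protein, was at 32.5, 49.9 and 43.3 CPM in Ly6c2-type barcodes of C1 to C3 and at 443, 350 and 317 in the carriers (-3.07 ± 0.26, adjusted p = 8.3e-06). Gngt2 was at 254, 346 and 370 against 1274, 1084 and 1092 CPM (-1.82 ± 0.17, adjusted p = 1.1e-05). The integrin chain Itgal of LFA-1, with which patrolling monocytes hold to vessel walls, differed by -2.00 ± 0.26. Eno3, a muscle enolase found in patrolling monocytes, had no UMI in any Ly6c2-type barcode of C1 to C3 and was at 230, 251 and 147 CPM in the carriers. Outside the list, Ear2 differed by -4.62 ± 0.38 (adjusted p = 8.3e-06) and Fcgr4, an activating receptor for IgG, by -2.70 ± 0.32. Pglyrp1, Eno3, Ear2 and Fcgr4 were named from genes that differed in the same direction in each of C1 to C3, so that agreement was part of their choice.

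Members of the program that define it by function differed less. Nr4a1 was at 1813, 1400 and 67.3 CPM in Ly6c2-type barcodes and at 2517, 2026 and 300.4 in carriers (-0.78 ± 0.21, adjusted p = 0.043). Cx3cr1 was at 238, 229 and 192 against 235, 369 and 297 CPM and did not pass (-0.45 ± 0.20, adjusted p = 0.26). Neither did Klf2 (0.10 ± 0.20, adjusted p = 0.88). Cebpb was lower in the Ly6c2-type (-0.85 ± 0.13, adjusted p = 0.0015).

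Of the 12 tested classical genes, 4 were higher in Ly6c2-type barcodes and none lower, with a median of 0.52. S100a10, the partner of annexin A2 and a member of no list here, was at 742, 722 and 736 CPM against 221, 274 and 259 (1.54 ± 0.15, adjusted p = 2.9e-05). Fn1 was at 985, 578 and 250 against 361, 218 and 61.4 CPM (1.55 ± 0.18, adjusted p = 0.00012), and Thbs1 differed by 1.60 ± 0.25. Chil3, Plac8 and Hp, often used to mark classical monocytes, did not pass, with log2 fold changes of 0.12 ± 0.15, -0.29 ± 0.13 and 0.04 ± 0.20. Their adjusted p-values were 0.78, 0.26 and 0.97. Many carriers also held Ly6c2, 13, 19 and 20 of those in C1, C2 and C3.

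Cd209a was higher in the Ly6c2-type than in the carriers, at 244, 305 and 62.5 CPM against 0, 14.2 and 0 (5.36 ± 0.51, adjusted p = 1.5e-05). Few barcodes held it, 4 of 19, 6 of 35 and 2 of 14 of the Ly6c2-type, and only 45 of its 117 UMIs in C1 were in that type. The others there lay in barcodes with neither kind of gene, which the comparison leaves out. Of the chemokine ligands 3 of 7 were higher, with Ccl9 at 698, 452 and 269 against 289, 298 and 99.0 CPM (1.06 ± 0.19, adjusted p = 0.0036). Il1b was lower in the Ly6c2-type, at 1618, 2076 and 43.3 against 3245, 3427 and 416 CPM (-1.24 ± 0.26, adjusted p = 0.012). Of 10 tested class II genes, 1 was higher in the Ly6c2-type and none lower, against 1.78% and 2.99% of all genes. It was the thiol reductase Ifi30 (0.76 ± 0.18, adjusted p = 0.025), and the 10 genes had a median of 0.68. H2-Aa did not pass and was at 1635, 4882 and 6874 CPM against 76.8, 4771 and 9203 (0.80 ± 0.53, adjusted p = 0.53), with the Ly6c2-type far higher in C1, near the carriers in C2 and lower in C3.

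**Figure D5:**
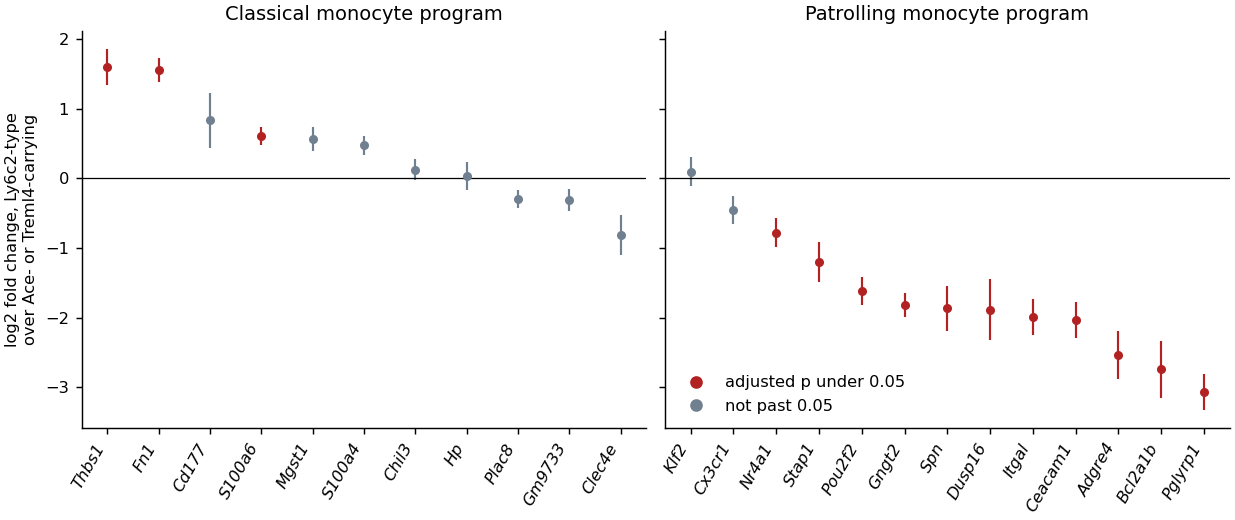
Log2 fold change with standard error of classical and patrolling genes in Ly6c2-type monocytes against those with an Ace or Treml4 UMI, fitted with edgeR over C1 to C3; positive values are higher in the Ly6c2-type. Patrolling genes lie below 0, Pglyrp1 at -3.07, except Klf2 at 0.10, and most classical genes lie above 0, Plac8 at -0.29 being an exception with Gm9733 and Clec4e.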

How the data were processed

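Single-cell RNA of CD45-sorted leukocytes was deposited as UMI counts per gene and barcode for 4 libraries. The tools were Cell Ranger 6.1.2 and STAR 2.7.10a with the build mm10, per the submitters' processing notes, whereas the deposited count files' headers name an older Cell Ranger, and the labels name 10x in 1 place and BD Rhapsody in another. No sample label is tied to a library, so the 4 libraries are given by their file names. The members and gene lists were chosen with earlier results of these data known.

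Barcodes were kept at 500 or more UMIs, 300 or more genes and at most 10% mitochondrial UMIs. CPM is a class's UMIs per 1000000 of its UMIs, with exact Poisson intervals, and shares have Clopper-Pearson intervals, at 95%. Depth was a median of 8527 to 11486 UMIs per monocyte and 444522, 560059, 524936 and 89047 UMIs in all monocytes of C1 to C4. A count of 0 allows up to 3 counts. Scrublet called 166, 0, 2 and 116 doublets, and so did not work in C2 and C3; calls were left in, and 2 monocytes of C1 were among them. Class sums with at least 10 barcodes were tested with edgeR 4.0.16 (R 4.3.3), quasi-likelihood, TMM scaling, the tool's default filter on low counts, library as a block, Benjamini-Hochberg adjustment at 0.05, and the 17 rule genes left out; the dendritic comparison also leaves out the dendritic rule's genes. DESeq2 1.42.0 was an alternative. Libraries are the replicates, 3 per test, and barcodes of a library may come from several pooled mice. With the library as a block, p-values measure the spread of the class difference over these 3 libraries. They do not measure the spread between animals of a group, since no group has a replicate. Simulated data had 200 genes changed 4-fold, the same mean profile in every library, a fixed spread and no library effect. In these data the macrophage test recovered 165 with 6 false calls among 5947 genes. The dendritic test recovered 122 with 0 among 5152, and the subset test 112 with 1 among 3246. The real libraries differ from each other, so these rates need not hold for them.

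Named genes were, in each list, up to 4 of highest median CPM and the one of largest ratio between libraries, the 15 of largest ratio over all genes, and in each tested comparison the 15 of largest fold change each way with list genes that passed. Those named by fold change had to differ in that direction in every library of the test. Irf8, Il6, Il10, Il12b, Nos2 and others not in these were named after their values were seen. Some genes named by these rules, such as Plac8, Hp and Cx3cr1, are also given for comparisons in which they did not pass, a choice made after their values were seen. Results of some genes are not reported here, though counts over lists include them.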

Additional observations from a re-analysis of the deposited data

How the results depend on the processing

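The class II and early response ratios stayed above 1 under every alternative tried, while their sizes moved. The class II ratio of C2 over C1, 2.77, was 2.65 without Scrublet calls, 2.57 without the top 5% of Scrublet scores, 2.67 without members holding 2 markers of other lineages (salivary genes aside), 4.11 with at least 3 of the 7 genes, 3.59 with Lyz2 at 10 or more, 4.38 after thinning before the rule and 6.50 without members with Flt3, Zbtb46 or Cd209a. C3 over C1, 4.40, became 4.20, 4.17, 4.24, 6.38, 5.46, 8.23 and 11.6 in the same order, and 3.43 in Ly6c2-type members. The early response ratio of C1 over C3, 3.78, was 4.00 with at least 3 genes, 3.63 with the stricter Lyz2, 3.63 without the dendritic genes and 5.27 in Ly6c2-type members, and C2 over C3, 3.50, was 3.64 with at least 3 genes, 3.29 after thinning and 4.38 in Ly6c2-type members. Thinning lowered the share of monocytes to 0.660% in C1 and 0.841% in C2. Leaving out members with 2 markers of other lineages, salivary genes counted, left 0% in C1 and C2 and 0.387% in C3, so the class comparisons could not be fitted on that set.

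No replicate number is shared between libraries, so the library served as the block. Without that block the counts of genes higher and lower were 139 and 87 against macrophages (main 245 and 197), 327 and 208 against dendritic cells (main 499 and 395), and 1 and 5 between subsets (main 57 and 96). DESeq2 gave 290 and 157 against dendritic cells and 7 and 25 between subsets. With no filter on low counts they were 616 and 758, 894 and 721, and 132 and 156. Requiring 20 barcodes per class, which removes C3, gave 656 and 694 against macrophages. Leaving out 1 library at a time gave 0 to 656 higher and 0 to 694 lower against macrophages, 193 to 529 and 124 to 370 against dendritic cells, and 12 to 106 and 34 to 145 between subsets. The lowest came without C2 each time, and the cause was not tested. Alternatives with other-lineage markers (salivary genes aside), without dendritic genes or in Ly6c2-type members only, and the subset comparison itself, were added after seeing the data. Depth limits C4, with 9 monocytes, to description.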

Other observations

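Lysosomal and glycolytic genes differed little in sum between the monocytes of the libraries. Between classes, 12 of 21 lysosomal genes were higher in monocytes than in dendritic cells and 1 lower, against 9.70% and 7.68% of all genes. Against macrophages none was higher and 4 of 21 were lower, against 4.29% and 3.45%. Lysosomal genes summed to 16224, 16893, 15408 and 15206 CPM in monocytes of C1 to C4, led by Psap, the saposin precursor, at 3946, 4555, 3288 and 4537. The ferritin genes Ftl1 and Fth1 were at 3948, 3182, 3749 and 3829 CPM and at 3224, 2787, 4547 and 3807. Glycolytic genes summed to 4621, 5821, 5982 and 4806 CPM, with Gapdh at 1426, 1855, 2080 and 1269. Of 8 measured heat shock genes, 2 were at least 2-fold lower in C3 than in C1 and none higher, against 8.26% and 6.91% of all genes. The constitutive Hspa8 was at 1712, 1853, 2867 and 2134 CPM, whereas the inducible Hspa1a was at 173, 114, 3.81 and 11.2, seen in 17, 14, 1 and 1 barcodes.

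Cycling was seen in few monocytes. Mki67, a protein of dividing cells, had a UMI in 1, 3, 3 and 1 barcodes. Top2a was at 91.4 CPM in C3, in 6 barcodes, and had no UMI in the other libraries. A single C3 barcode held 44.2% of the UMIs of the cell cycle list there. Cd274, the inhibitory ligand PD-L1, was at 22.5, 39.3, 103 and 157 CPM, and AW112010, an interferon-inducible transcript, at 81.0, 364, 806 and 89.8.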
